A study of Mus musculus with 35 samples.

Results

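Retinas from mice diabetic for 8 weeks were compared with and without 2 weeks of microglia depletion, gene by gene, over every gene of the authors' deposited table for that contrast. The table covers 9 of the 35 samples of the series: 4 retinas labelled as 8 weeks diabetic with 2 weeks of DTx (D8 depleted) over 5 labelled as 8 weeks diabetic with PBS (D8). It lists 25655 genes, of which 16982 have an adjusted p-value and are called tested here. The series followed retina before, during and after a transient loss of microglia, and the contrast asks what the diabetic retina expresses while the microglia are away.

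All groups carry the genotype label WILD-TYPE. The series text adds that the mice were CX3CR1-WT and that those without depletion ate normal chow. It names the depleting agent as PLX-5622, an inhibitor of the receptor CSF1R, whereas the labels name DTx, so the agent is called only depletion here. The sources used here do not say how diabetes was induced, how old the mice were or whether each sample is a separate animal. P-values therefore measure the spread between samples, which may be technical. The other groups set beside this contrast were non-diabetic retina without any added label (ND, 6 samples), ND after 2 weeks of depletion and 2 weeks of recovery (ND repopulated, 5), 10 weeks of diabetes with PBS (D10, 5) and 10 weeks of diabetes with 2 weeks of depletion and 2 of recovery (D10 repopulated, 5).

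Microglia are the resident macrophages of neural tissue. In the retina they sit mainly in the synaptic layers, need signalling through the receptor Csf1r to survive, and receive the neuronal ligand Cx3cl1 through the receptor Cx3cr1. They make most of the complement component C1q of neural tissue and can release chemokines that call in other leukocytes. Diabetes is known to activate microglia and to set off stress responses in Müller glia, the radial glia that span the retina and support its neurons.

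The values are the authors' own: a log2 fold change and p-value per gene and the larger of both group means, with no value per sample. The group mean is called the level; its unit is not stated, nor whether it is per length, so levels are compared between groups for a gene, and between genes only in a rough count of genes with a neighbour of much higher level. Where a lower group's mean is given, it was computed from the deposited fold change and the higher mean, or read from another deposited table that holds it. Each log2 fold change is followed by ± and its standard error, implied by its p-value, and "rose", "fell" or "called" refer to a deposited adjusted p under 0.05. Depth per sample is unknown. The numbers in the sample titles place D8 and D10 in a separate run from all other groups, with no date given. Whether handling differed between those runs is not stated, so the depletion contrast and any such difference cannot be told apart. The same holds for D8 over ND, which crosses that divide too, whereas D8 depleted over ND does not cross it. The levels of Arr3 (cone arrestin, 152 in D8 and 76.3 in D8 depleted) and Rlbp1 (a retinoid carrier of Müller glia and pigment epithelium, 71.8 and 58.4) in the authors' deposited tables fit the tissue label.

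Between D8 and D8 depleted, 1826 of the 16982 tested genes were called (10.8%): 994 were called higher (5.85%) and 832 lower (4.90%). The changes were unequal in size. Of the called genes, 60 were at least 8-fold lower and 40 at least 8-fold higher, while the median called riser stood at 0.67 and the median called faller at -0.53 on the log2 scale. The median of all tested genes was 0.00, and the median implied standard error was 0.163 log2 units. In the plot of all tested genes, many of the steepest falls belonged to microglial genes and many of the steepest rises to genes of low level, with a dense band of small, called changes among the well expressed genes.

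**Figure D1:**
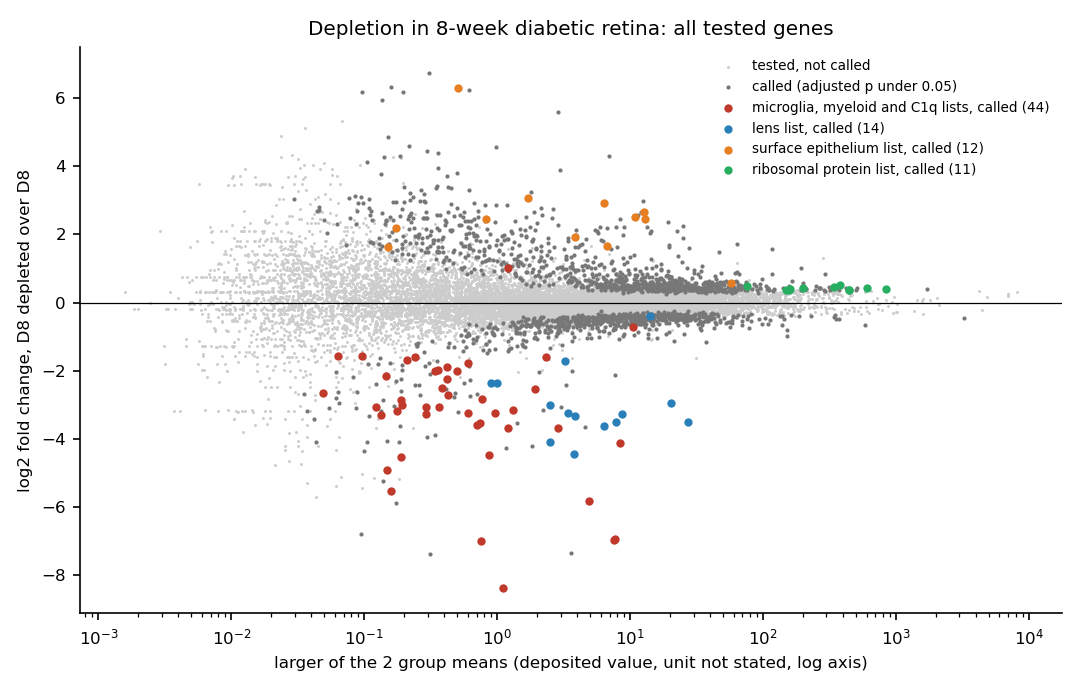
Log2 fold change of D8 depleted over D8 (vertical axis) against the larger of both group means (horizontal log axis, unit not stated) for all 16982 tested genes, with the 1826 called genes in dark grey and called members of selected gene lists in colour. Called genes of the microglia, myeloid and C1q lists lie below 0 except C2 at 1.01 and Upk1b, which is drawn with the surface epithelium list; the called ribosomal protein genes cluster just above 0 at high levels, and called surface epithelium genes lie above 0.

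Most genes that mark resting microglia fell steeply. Among 28 tested homeostatic microglia genes, 17 fell and 1 rose, beside 4.90% called lower and 5.85% higher over all tested genes. Their median log2 was -2.57 against 0.00 for all tested genes. The riser, Upk1b (1.91 ± 0.42), also stands in the surface epithelium list. Without it and the lens crystallin Crybb1, 16 of 26 fell and none rose, and the median stayed at -2.57.

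Cx3cr1, the fractalkine receptor (GRCm39 chr9:119730682-119898945), had a level of 0.713 in ND, 0.761 in D8 and 0.00603 in D8 depleted in the authors' deposited tables. D8 and ND were close, and 0.792% of the D8 level was left after depletion. Its log2 fold change was -6.98 ± 0.85 (adjusted p = 3.04e-13 in the authors' deposited table). Csf1r, the receptor for the survival factors Csf1 and Il34, went from 1.3 in D8 to 0.147, a log2 fold change of -3.15 ± 0.38 (adjusted p = 1.13e-13, the authors' deposited table). Tmem119, a surface protein used to tell microglia from other macrophages, went from 0.604 to 0.0643 in the same deposited table of the authors, a change of -3.23 ± 0.56. Cx3cr1, Csf1r and Tmem119 therefore kept 0.792%, 11.3% and 10.6% of their D8 levels.

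Residual levels differed between homeostatic genes. P2ry12, the purinergic receptor that guides microglial processes, fell with an estimate of -1.97 ± 0.54 and kept 25.5% of its D8 level (the authors' deposited table). Selplg, the ligand of P-selectin, fell to 0.0392 from 0.868 in the authors' deposited tables (-4.47 ± 0.57). Siglech (-5.54 ± 1.26), a sialic acid binding receptor, and Fcrls (-4.92 ± 1.28), an Fc receptor-like protein, had among the largest falls of the list in the authors' deposited table, from D8 levels of 0.158 and 0.149. Sall1, a transcription factor of microglial identity, fell by 1.56 on the log2 scale in the authors' deposited table. Members that neurons or glia are known to express did not pass the test: Sparc had -0.08, Cst3 0.06 and Olfml3 -0.41 in the authors' deposited table. Adora3 (-5.39, adjusted p = 0.0827) and Ltc4s (-5.17, adjusted p = 0.101) had large estimates in the authors' deposited table that missed the threshold.

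Genes shared by myeloid cells followed the same direction. Of 40 pan-myeloid genes, 22 fell and none rose, with a median of -1.73, beside 4.90% called lower over all tested genes. Ctss, a lysosomal protease of antigen-presenting cells (GRCm39 chr3:95434097-95463714), had the smallest p-value of the list: its level was 6.16 in ND, 8.39 in D8 and 0.485 in D8 depleted in the authors' deposited tables. That is -4.11 ± 0.27 on the log2 scale (adjusted p = 1.36e-46, the authors' deposited table), with 5.79% left. Tyrobp, the adaptor that signals for several myeloid receptors, went from 2.89 to 0.225 in the authors' deposited tables (-3.68 ± 0.52). Laptm5, a lysosomal membrane protein of blood cells, went from 1.21 to 0.0947 (-3.68 ± 0.40, the authors' deposited table). They kept 7.79% and 7.82% of their D8 levels.

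Receptors and some oxidase subunits were among the called myeloid genes. In the authors' deposited table the called members included Aif1, which encodes the histological marker Iba1 (-3.52 ± 0.66), the Fc receptor genes Fcgr3 (-3.22) and Fcgr1 (-3.05), and the integrin subunit Itgb2 (-2.25). They also included Cybb (-3.07) and Ncf1 (-2.84), subunits of the phagocyte oxidase, and Ptprc, the leukocyte antigen CD45 (-2.16), per the authors' deposited table. The oxidase genes Cyba (-0.06) and Rac2 (-0.72) were not called, nor were the signalling genes Syk (-0.87), Lyn (-0.51), Plcg2 (-0.14) and Inpp5d (-0.43) in the authors' deposited table. Ly86, a partner of a Toll-like receptor family protein, had the lowest estimate and a wide error (-8.36 ± 2.10, the authors' deposited table). Not every member moved: Cd68, a lysosomal protein used to stain phagocytes, had 1.15 in D8 and 1.11 in D8 depleted (-0.07 ± 0.35, adjusted p = 0.931, the authors' deposited table). Itgam, which encodes CD11b, had -1.19 ± 0.43 and missed the threshold (adjusted p = 0.0525, the authors' deposited table). In whole retina, fewer cells of a type and less RNA per cell cannot be told apart.

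In the classical complement list the C1q genes and the receptors C3ar1 and C5ar1 fell, and no other member had a called fall. C1qa, C1qb and C1qc encode the chains of C1q, the recognition protein of the pathway, and lie side by side on chromosome 4 of GRCm39 (chr4:136623228-136626114, chr4:136607440-136613498 and chr4:136617115-136620376). C1qa had levels of 4.6 in ND, 7.71 in D8 and 0.0637 in D8 depleted in the authors' deposited tables, C1qb 4.05, 7.6 and 0.0608, and C1qc 3.07, 4.91 and 0.0872. In each gene D8 was the highest group and D8 depleted the lowest. The log2 fold changes were -6.92 ± 0.57, -6.97 ± 0.57 and -5.82 ± 0.49, with adjusted p of 1.84e-30, 2.96e-30 and 2.84e-28 in the authors' deposited table. The receptors C3ar1 (-4.54 ± 0.82) and C5ar1 (-3.31 ± 0.86) for complement fragments fell as well in that deposited table of the authors.

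Glia and vessels are known to make other complement components. C3, the central component, had -0.49 after depletion (adjusted p = 0.69, the authors' deposited table); it stood at 4.24 in D8 and 3.76 in D8 depleted over ND. C4b had 0.73 (adjusted p = 0.058), C1ra 0.31, C1s1 0.56 and the inhibitor Serping1 0.35 in the authors' deposited table, none of them called. C2, the protease that joins C4b in the classical convertase, rose (1.01 ± 0.36, adjusted p = 0.0481, the authors' deposited table). With a trend on transcript length and GC content removed from the authors' values, C2 was not called (adjusted p = 0.0732). In all, 5 of 12 classical complement genes fell and 1 rose, beside 4.90% called lower and 5.85% higher over all tested genes.

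Promoter windows of some of these genes are shown to set their sequence beside the shared fall and beside that of Spi1. Spi1 encodes PU.1, a transcription factor that binds sites with the core GAGGAA in myeloid cells. Spi1 itself fell from 0.472 to 0.0687 (-2.78 ± 0.53, the authors' deposited table). The windows run from 250 bases before to 50 bases after the transcription start in RefSeq annotation of GRCm38.p6, a different build from that of the deposited tables. They are written 5′ to 3′ on the gene's strand, with GAGGAA or its reverse complement TTCCTC in capitals. C1qb lies on the minus strand (chr4:136886151-136886450), C1qc on the minus strand (chr4:136892865-136893164), Ctss on the plus strand (chr3:95526536-95526835), Laptm5 on the plus strand (chr4:130913066-130913365) and Cx3cr1 on the minus strand (chr9:120068247-120068546).
C1qb: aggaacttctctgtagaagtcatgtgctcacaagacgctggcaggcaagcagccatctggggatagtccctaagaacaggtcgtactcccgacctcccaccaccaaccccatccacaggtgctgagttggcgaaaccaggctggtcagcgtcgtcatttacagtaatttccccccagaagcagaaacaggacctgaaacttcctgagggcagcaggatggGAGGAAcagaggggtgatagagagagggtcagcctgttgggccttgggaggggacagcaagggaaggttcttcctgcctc
C1qc: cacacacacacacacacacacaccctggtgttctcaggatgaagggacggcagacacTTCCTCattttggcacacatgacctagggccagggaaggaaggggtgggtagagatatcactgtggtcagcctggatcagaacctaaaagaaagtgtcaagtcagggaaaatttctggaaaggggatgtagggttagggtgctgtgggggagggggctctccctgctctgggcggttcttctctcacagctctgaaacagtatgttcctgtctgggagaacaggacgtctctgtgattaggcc
Ctss: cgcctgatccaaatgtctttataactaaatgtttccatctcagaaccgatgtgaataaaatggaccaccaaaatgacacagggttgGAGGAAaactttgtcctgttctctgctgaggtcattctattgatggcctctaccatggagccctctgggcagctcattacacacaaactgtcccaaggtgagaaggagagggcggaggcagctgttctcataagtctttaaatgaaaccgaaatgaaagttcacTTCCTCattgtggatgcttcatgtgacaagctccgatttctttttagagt
Laptm5: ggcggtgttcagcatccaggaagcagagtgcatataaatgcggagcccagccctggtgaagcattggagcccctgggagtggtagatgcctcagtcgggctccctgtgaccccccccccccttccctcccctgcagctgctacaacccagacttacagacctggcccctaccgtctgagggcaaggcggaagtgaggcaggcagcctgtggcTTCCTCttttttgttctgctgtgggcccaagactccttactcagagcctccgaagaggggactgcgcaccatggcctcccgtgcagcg
Cx3cr1: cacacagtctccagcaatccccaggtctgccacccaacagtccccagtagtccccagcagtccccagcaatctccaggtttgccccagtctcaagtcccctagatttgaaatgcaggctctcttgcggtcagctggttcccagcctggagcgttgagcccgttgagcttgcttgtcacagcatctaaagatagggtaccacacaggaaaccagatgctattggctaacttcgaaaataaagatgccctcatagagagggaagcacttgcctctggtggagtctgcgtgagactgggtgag

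Ctss carried the letters once on each strand, C1qb, C1qc and Laptm5 carried them 1 time each, and the window of Cx3cr1 did not hold them. Counting a gene when any of its windows held either form, 58.1% of the called-lower members of the homeostatic, pan-myeloid and C1q lists that matched by symbol had the letters (18 of 31). The share was 53.4% over the tested members of those lists (31 of 58), 38.0% over all genes called lower that matched (240 of 632) and 30.6% over matched tested genes (4036 of 13191). It was 28.3% over all windows of the table (9289 of 32851). A match is a run of letters, not a measured site.

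**Figure D2:**
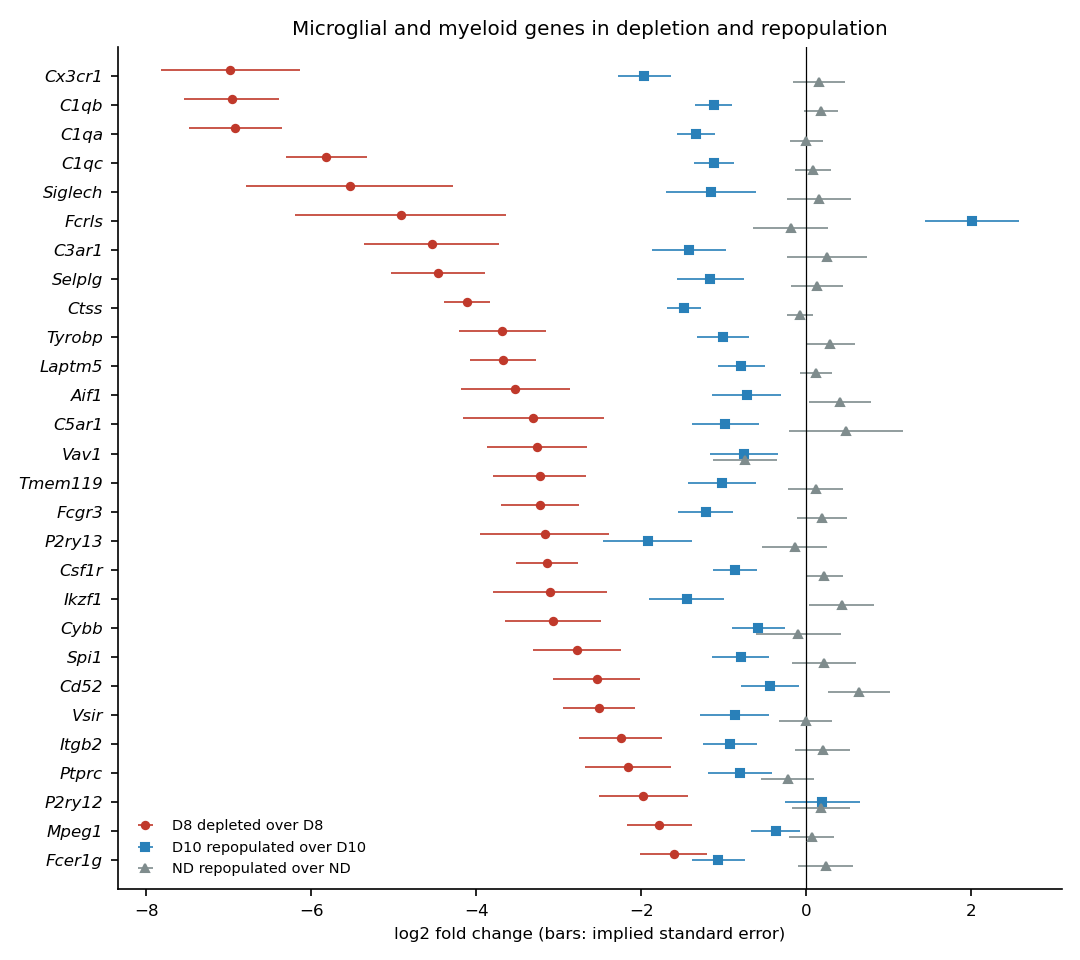
Log2 fold changes (horizontal axis; bars are implied standard errors) of called microglial, myeloid and complement genes after depletion at 8 weeks (red), and of the same genes in D10 repopulated over D10 (blue) and ND repopulated over ND (grey). All depletion values lie below 0, from -6.98 for Cx3cr1 to -1.61 for Fcer1g, and every repopulation value lies nearer to 0. Fcrls at 10 weeks stands above 0, at 2.01.

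Some transcription factors and cytokine receptors of the Csf1r axis fell, and the ligands had no called change. Of 20 genes of that axis 7 fell and none rose (median -0.31), beside 4.90% called lower over all tested genes. Besides Csf1r and Spi1, the authors' deposited table held Ikzf1, a lymphoid and myeloid zinc finger factor (-3.11 ± 0.70), Csf3r, the receptor of granulocyte colony-stimulating factor (-1.83), Tgfbr2, a receptor subunit for TGF-beta (-0.89), Csf2ra (-0.48) and Mef2c (-0.37). Mef2c is also a cone and neuronal factor. With a trend on transcript length and GC content removed from the authors' values, Tgfbr2 (adjusted p = 0.0693) and Mef2c (adjusted p = 0.364) were not called, which left 5 called lower. The ligands Il34 (-0.08 ± 0.24) and Csf1 (-0.04 ± 0.35) were not called in the authors' deposited table. Csf1 stood at 1.57 in D8 and 1.54 in D8 depleted over ND in the authors' deposited tables. Cx3cl1, the neuronal ligand of the lost receptor, fell slightly, from 18.5 to 14.4 (-0.35 ± 0.12, adjusted p = 0.0448, the authors' deposited table).

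Markers of other leukocytes did not move as a block. Their called counts stand beside 4.90% called lower and 5.85% called higher over all tested genes. Border macrophages line vessels and the margins of neural tissue, and of 12 of their genes 2 fell, F13a1 (-5.89 ± 1.30) and the mannose receptor Mrc1 (-3.09 ± 0.92), while Cbr2 rose (2.23 ± 0.54) in the authors' deposited table. Lyve1, another marker of those cells, had -0.22 and was not called in the authors' deposited table. Cd163 (-5.69, adjusted p = 0.0667) and Ms4a7 (-2.95, adjusted p = 0.0695) had large estimates in the authors' deposited table that missed the threshold. Of the 12 border macrophage genes 8 lay below 0 and 4 above 0, with a median of -0.91. Of 10 monocyte genes Ms4a4c fell (-3.31) and Plac8 rose (2.15, the authors' deposited table). Of 12 neutrophil genes the granule proteins Ltf (1.95) and S100a9 (2.04) rose and Csf3r fell in the authors' deposited table. Of 9 genes of T, NK and B cells the immunoglobulin joining chain Jchain (0.79) and Cd79b (1.75) rose in the authors' deposited table. The disease-associated microglia list was mixed, with 4 of 29 lower and 3 higher. Clec7a (-3.62 ± 0.84), a receptor for fungal glucans, and Lyz2 (-2.00), lysozyme, fell, whereas Gpnmb (0.69 ± 0.23), Ctsl (0.57) and Lgals3 (1.40 ± 0.34), which retinal pigment epithelium, epithelia or glia can also express, rose in the authors' deposited table.

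Several falling genes stood in none of the lists. Adgre1, a macrophage surface antigen (-4.10 ± 0.84), the survival gene Bcl2a1b (-4.26 ± 0.85), Arhgap30 (-3.19 ± 0.67) and Pld4 (-2.69 ± 0.46) are known from blood or myeloid cells, and their values are those of the authors' deposited table. Bcl2a1b belongs to a family of near-identical copies, so its reads could be split between copies. Ptprn2 (-0.94 ± 0.16), Rph3a (-0.63 ± 0.13) and Kcnc1 (-0.59 ± 0.12), genes of secretory vesicles, synaptic vesicles and a fast potassium channel, fell by less in the authors' deposited table.

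Diabetic retina at 8 weeks expressed chemokines and cytokines that non-diabetic retina barely expressed, and a subset of these was lower after depletion. D8 and D8 depleted are both set beside ND for these genes; the contrasts share samples, so their values stand side by side only. D8 over ND called 2.91% of its tested genes and D8 depleted over ND 28.5%. Ccl12, a chemokine that attracts monocytes, had levels of 0.147 in ND, 3.58 in D8 and 0.022 in D8 depleted in the authors' deposited tables. The log2 fold change after depletion was -7.35 ± 1.31 (adjusted p = 6.43e-06, the authors' deposited table), and D8 depleted was the lowest of the groups. Ccl3, a chemokine made by activated myeloid cells, had 0.0507, 1.83 and 0.0958 in the same order in the authors' deposited tables, a change of -4.21 ± 0.86 after depletion. Ccl4, its close relative, had 0.0638, 1.41 and 0.119 (-3.52 ± 0.86, the authors' deposited tables). For both, D8 depleted was near ND: the log2 fold changes over ND were 0.96 and 0.94, against 5.17 and 4.46 in D8 (the authors' deposited tables).

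Other members of the same family kept a raised level. Ccl7, another monocyte attractant, fell (-3.14 ± 1.02) yet stood 3.84 above ND on the log2 scale in the authors' deposited tables, against 6.97 in D8. Ccl2, the main monocyte attractant, had 0.12 in ND, 14.3 in D8 and 6.77 in D8 depleted in the authors' deposited tables; the depletion change, -1.09 ± 0.87, was not called (adjusted p = 0.452). Cxcl10, an interferon-induced chemokine, had 0.0991, 31.3 and 10.2 (-1.62 ± 1.05, adjusted p = 0.335, the authors' deposited tables). The 95% intervals from the implied standard errors are wide, from -2.81 to 0.62 for Ccl2 and from -3.68 to 0.44 for Cxcl10, so that a steep fall and no fall both lie within them. Ccl17 (2.26 ± 0.51) and Cxcl9 (3.36 ± 0.67) rose in the authors' deposited table. In all, 5 of 22 CC chemokine genes and receptors fell and 2 rose, beside 4.90% called lower and 5.85% higher over all tested genes.

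A few cytokine and early response genes fell. Lif, a cytokine that glia and photoreceptors use in the response to injury, had levels of 0.136 in ND, 4.57 in D8 and 0.364 in D8 depleted in the authors' deposited tables (-3.66 ± 0.86). Il12b, a subunit of interleukins 12 and 23, fell by 3.95 on the log2 scale in the authors' deposited table from a low level. Il6st, the signalling subunit shared by receptors for Lif and interleukin 6, fell by 0.45 in the authors' deposited table. These were the 3 falling genes among 36 tested of the cytokine list, and none rose. Over all tested genes 4.90% were called lower and 5.85% higher. With the length and GC trend removed Il6st was not called. The transcription factor gene Fosl1 went from 0.0763 in ND to 3 in D8 and 0.362 in D8 depleted (-3.07 ± 0.96, the authors' deposited tables). Egr2 (-3.21) and Fos (-1.13) fell too in the authors' deposited table. These were the 3 falling genes among 31 of the early response list, and Ccn2, a matrix-associated growth regulator, was its riser (0.83 ± 0.16, the authors' deposited table). Fas, the death receptor, had 0.278, 7.64 and 1.77 (-2.13 ± 0.75, adjusted p = 0.0451, the authors' deposited tables), intermediate after depletion. Of 21 Toll-like receptor and inflammasome genes Tlr1 (-5.23 ± 1.29) and Tlr13 (-2.19) fell and Aim2 (1.11), a sensor of cytosolic DNA, rose in the authors' deposited table. The scavenger receptor Msr1 fell (-2.42 ± 0.57, the authors' deposited table).

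Most of the rest of the diabetic inflammatory pattern showed no called change. None of 17 MHC class I genes was called. H2-K1, a class I heavy chain, had levels of 16.2 in ND, 44.8 in D8 and 44.6 in D8 depleted (-0.03 ± 0.21, the authors' deposited tables). The 95% interval of that change, from the implied standard error, runs from -0.45 to 0.39. B2m, the shared light chain, had 0.03 in the authors' deposited table. Of 31 interferon-stimulated genes only the regulator Irf7 was called (0.62, higher, the authors' deposited table), and the list's median was 0.16. Of 18 interferon-induced GTPases 3 rose further: Iigp1 (1.76 ± 0.54), Tgtp1 (1.64 ± 0.50) and Tgtp2 (1.57 ± 0.52) in the authors' deposited table. Tgtp1 and Tgtp2 are near-identical copies, so their values are not independent. None of 8 MHC class II genes was called (median -0.38). The counts of these lists stand beside 5.85% called higher and 4.90% called lower over all tested genes.

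**Figure D3:**
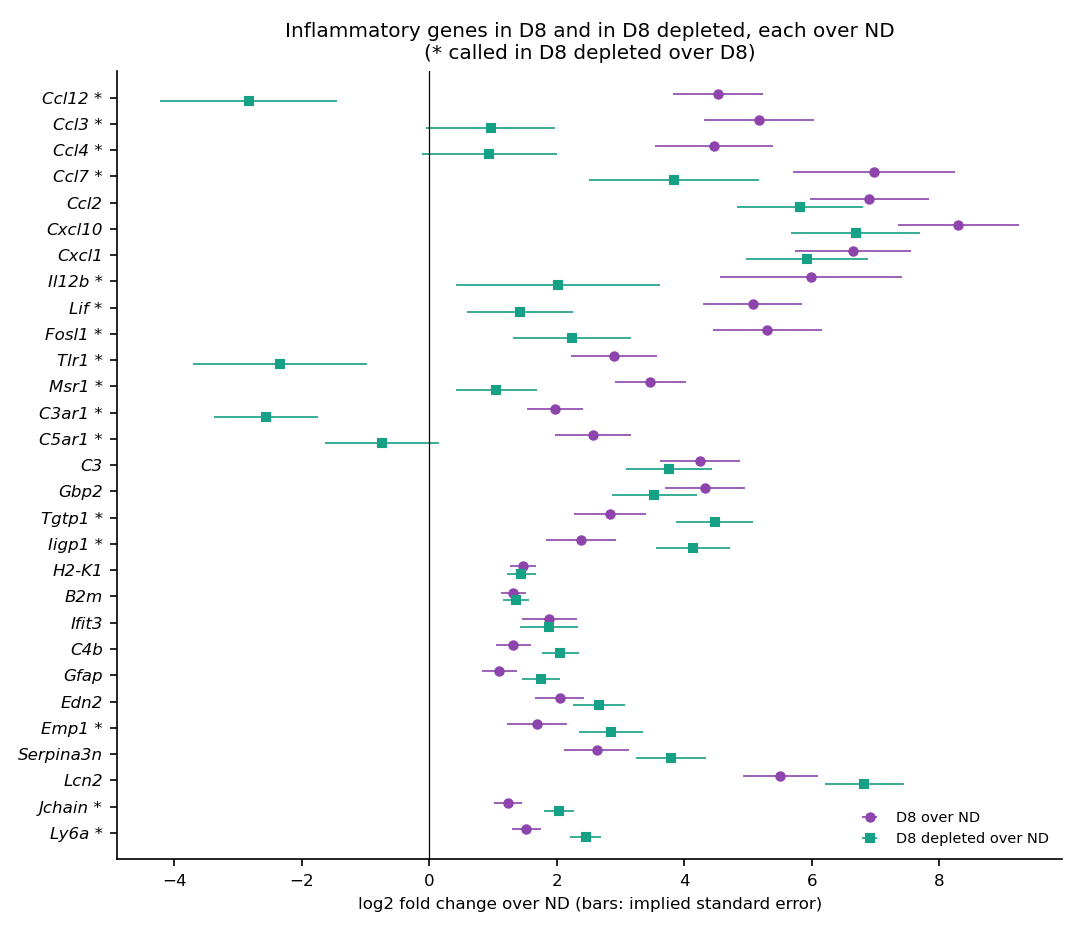
Log2 fold changes over ND (horizontal axis; bars are implied standard errors) of inflammatory and glial stress genes in D8 (purple) and in D8 depleted (green), with an asterisk on genes called in D8 depleted over D8. Chemokines such as Ccl12, Ccl3 and Ccl4 are far apart in the D8 and D8 depleted groups, H2-K1 and B2m nearly coincide, and Lcn2, Tgtp1 and Ly6a lie farther from ND after depletion. Both series use the same ND samples.

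The stress genes Lcn2, Serpina3n and Gfap had their highest levels after depletion, with wide errors and without passing the test against D8. Lcn2, an iron-binding stress protein of glia and neutrophils, had levels of 2.48 in ND, 113 in D8 and 285 in D8 depleted (1.30 ± 0.64, adjusted p = 0.179, the authors' deposited tables). Serpina3n, a protease inhibitor of reactive glia, had 4.51, 27.8 and 63.3 (1.16 ± 0.50, adjusted p = 0.12, the authors' deposited tables). Gfap, the intermediate filament of astrocytes and stressed Müller glia, had 2.06, 4.42 and 7.01 (0.64 ± 0.33, adjusted p = 0.206, the authors' deposited tables). D8 depleted was the highest group in each of the 3 genes, and none was called against D8. Counts of the acute phase and gliosis lists stand beside 5.85% called higher and 4.90% called lower over all tested genes. Called risers of the acute phase list were A2m (1.10 ± 0.26), Serpina3g (2.39) and the ferritin chain Fth1 (0.38), 3 of 21, and none fell (the authors' deposited table). Of 28 gliosis genes Emp1 rose (1.15 ± 0.36) and Lif and the lipid receptor S1pr3 (-0.99) fell in the authors' deposited table. In that list 18 of 28 genes lay below 0 after depletion, with a median of -0.22, and the median log2 over ND was 1.08 in D8 and 1.07 in D8 depleted. Over the 407 genes called higher in D8 than in ND, the median log2 over ND was 1.48 in D8 and 1.35 in D8 depleted; the D8 samples chose these genes, and both values share the ND samples.

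Some genes of Müller glia and photoreceptors fell by small amounts, beside 4.90% called lower over all tested genes. Of 24 Müller glia genes 8 fell and 1 rose (median -0.31), and 6 and none were called with the length and GC trend removed. Kcnj10, the potassium channel through which Müller glia buffer potassium, had 8.86 in ND, 7.06 in D8 and 4.46 in D8 depleted (-0.66 ± 0.17, the authors' deposited tables). Slc1a3, their glutamate transporter, fell by 0.48, and Glul, glutamine synthetase, had -0.13 and was not called (the authors' deposited table). Of 27 rod genes 5 fell and 2 rose, and of 18 cone genes 6 fell. With the trend removed 6 rod genes were called lower and none higher, and 3 cone genes were called lower. Arr3 had 81.1 in ND, 152 in D8 and 76.3 in D8 depleted (-0.99 ± 0.19, the authors' deposited tables), so that D8 stood apart from both other groups. Of these groups only D8 lies in the separate run of sample numbers, so group and run cannot be told apart for Arr3. Gucy2f, a guanylate cyclase of photoreceptors (-1.03), Rcvrn, recoverin (-0.67), Gnat1, rod transducin (-0.44) and Opn1sw, short-wave cone opsin (-0.52) fell, and Guca1a, an activator of the cyclase, rose (0.41), in the authors' deposited table.

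Called falls of inner retinal neurons were of similar size. They numbered 4 of 24 for bipolar cells, 5 of 25 for amacrine cells, 1 of 11 for horizontal cells and 4 of 24 for ganglion cells, with medians between -0.23 and -0.01, beside 4.90% called lower over all tested genes. With the length and GC trend removed they numbered 4, 1, none and 6 in that order. Slc17a6, the vesicular glutamate transporter of ganglion cells, had 6.53 in ND, 5.62 in D8 and 3.32 in D8 depleted (-0.76 ± 0.15, the authors' deposited tables). Prkca of rod bipolar cells fell by 0.48 and Gad2, which makes GABA in amacrine cells, by 0.51 on the log2 scale in the authors' deposited table. Trpm1, the channel of ON bipolar cells that pigment cells also express, rose (0.51, the authors' deposited table). Of 49 synapse genes 12 fell and 1 rose (median -0.19), and 8 and none were called with the trend removed. The synaptic vesicle protein Syn1 had 26.3, 22.8 and 14.5 (-0.65 ± 0.13, the authors' deposited tables), and the active zone genes Bsn (-0.57) and Rims1 (-0.57) fell in the authors' deposited table. Slc17a7 (-0.22), Snap25 (-0.19) and Syp (0.07), which are among the most abundant synaptic messages, were not called in the authors' deposited table.

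Vascular lists had small medians, -0.21 for endothelial and -0.08 for pericyte genes. Their called counts stand beside 4.90% called lower and 5.85% called higher over all tested genes. Of 28 endothelial genes 3 fell and 1 rose: the angiopoietin receptor Tek (-1.37 ± 0.42), the efflux pump Abcb1a (-1.26 ± 0.29) and the VEGF receptor Kdr (-0.64) were lower, and Ly6a (0.92) was higher, in the authors' deposited table. Vegfa itself went from 50.8 in ND to 46 in D8 and 34.9 in D8 depleted (-0.40 ± 0.14, adjusted p = 0.0482, the authors' deposited tables). Of 15 pericyte genes Rgs5 fell (-0.41, the authors' deposited table). The Notch ligand Dll4 rose (1.16, the authors' deposited table). With the length and GC trend removed from the authors' values, Vegfa (adjusted p = 0.0574), Dll4 (adjusted p = 0.0657) and Rgs5 (adjusted p = 0.0728) were not called.

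Genes of protein folding, sterol synthesis and sugar metabolism held many called falls, set here beside the 4.90% called lower over all tested genes. Of 28 unfolded protein response genes 11 fell and none rose, among them the endoplasmic reticulum chaperones Calr (-0.66), Hsp90b1 (-0.64) and Hspa5 (-0.56) in the authors' deposited table. Of 22 heat shock genes 4 fell, including Hspa8 (-0.49, the authors' deposited table). Of 25 cholesterol synthesis genes 7 fell and 1 rose; Hmgcs1, an early enzyme, fell by 0.47 and Stard4, a sterol carrier, by 0.68 on the log2 scale in the authors' deposited table. Of 31 glycolysis and hypoxia genes 6 fell, such as Pfkl (-0.62) and Pdk1 (-0.61) in the authors' deposited table. In that list 1 gene rose, by at least 1 log2 unit, and it was still called with the length and GC trend removed. Txnip, which glucose induces and which restrains glucose uptake, rose from 3.15 to 7.18 (1.16 ± 0.20, the authors' deposited table).

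Genes of fatty acid use, glucocorticoid response and the clock were called in the other direction. Of 25 genes of PPAR signalling and ketone metabolism 8 rose and none fell (median 0.36), against 5.85% called higher over all tested genes. Pdk4, a kinase that turns off pyruvate oxidation (1.43 ± 0.46), Acot1, an acyl-CoA thioesterase (1.01), Ucp2, a mitochondrial carrier (0.99), and Hadha, a subunit of beta oxidation (0.37), were among them in the authors' deposited table. Of 21 glucocorticoid-responsive genes 5 rose and none fell, including Tsc22d3 (0.56), which encodes GILZ (the authors' deposited table). Pdk4 and Plin4 stand in both of these lists. Of 20 clock genes 4 rose, among them Cry1 (0.72), Ciart (0.70) and Per3 (0.55) in the authors' deposited table. The glutathione transferases Gsta1 (2.19), Gsta3 (0.99) and Gsta4 (0.68) were 3 of 4 risers among 28 antioxidant genes (the authors' deposited table). Apod, a lipid carrier of glia under stress, rose from 1.66 to 7.85 (2.21 ± 0.34, the authors' deposited table), and Bbc3, a p53 target that promotes cell death, from 2.05 to 4.04 (0.96 ± 0.24).

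Among ribosomal protein genes 11 of 30 rose, by small amounts, beside 5.85% called higher over all tested genes. All 30 lay above 0 and the median was 0.32; Rps14 (0.50) and Rps19 (0.48) had the largest values named here from the authors' deposited table. These are short transcripts, and the fold changes of this contrast moved with transcript length and GC content.

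**Figure D4:**
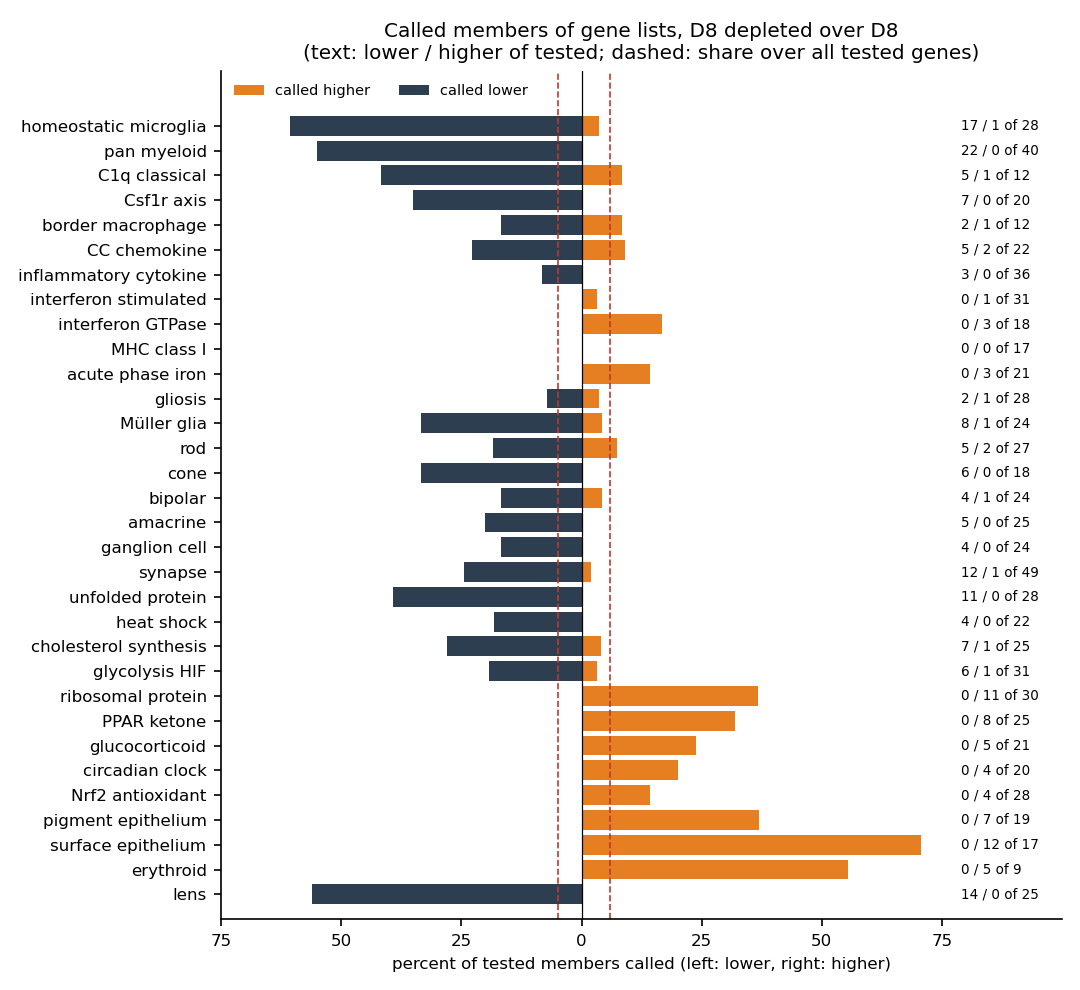
Percent of the tested members of each gene list that were called lower (bars to the left) or higher (bars to the right) in D8 depleted over D8, with the counts at the right edge and dashed lines at the shares over all tested genes (4.90% lower and 5.85% higher). Microglial, myeloid and lens lists reach farthest to the left, and surface epithelium and erythroid lists farthest to the right.

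Among 12125 genes with a level over 1, split into 5 bins of equal size by transcript length, the median log2 fold change went from 0.11 in the bin of shortest transcripts to -0.12 in that of the longest. The share called lower rose from 2.43% to 10.1% over the same bins, and the share called higher went from 9.15% to 4.0%. By GC content the median went from -0.11 in the lowest bin to 0.10 in the highest. In D8 depleted over ND, which shares the D8 depleted samples, the medians went from 0.15 to -0.13 by length and from -0.10 to 0.14 by GC content. In D8 over ND and in both repopulation contrasts the medians of all bins lay between -0.03 and 0.03. With a smooth trend on length and GC removed, an alternative chosen after the data were seen, 877 genes were called higher and 586 lower, of which 733 and 491 were also called without it. The removal left the microglial counts at 16 lower of 28 homeostatic and 23 of 40 pan-myeloid genes. Ribosomal protein genes called higher went from 11 to 2, unfolded protein genes called lower from 11 to 7, heat shock genes from 4 to 1, cholesterol genes from 7 to 4 and amacrine genes from 5 to 1. PPAR and ketone genes called higher went from 8 to 5. Ganglion cell genes called lower went from 4 to 6 and glycolysis genes from 6 to 8. Of further genes named above as having risen or fallen, Fth1, Sall1, Slc1a3, Guca1a, Prkca, Gad2 and Rps14 were not called with the trend removed. What set this trend was not tested.

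**Figure D5:**
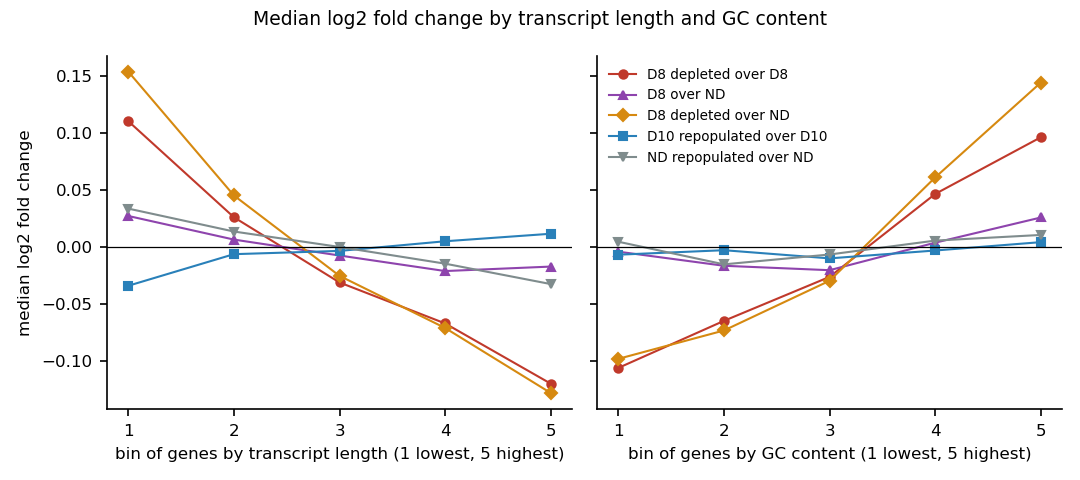
Median log2 fold change (vertical axis) of genes with a level over 1 in 5 bins of transcript length (left panel) and of GC content (right panel), for D8 depleted over D8 and for 4 other contrasts. D8 depleted over D8 runs from 0.11 to -0.12 with length and from -0.11 to 0.10 with GC content, D8 depleted over ND from 0.15 to -0.13 and from -0.10 to 0.14, and the other lines stay near 0.

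Markers of tissues outside the neural retina also differed between these groups, beside 4.90% called lower and 5.85% called higher over all tested genes. Of 25 tested lens genes 14 fell and none rose (median -2.17), and the summed level of the 27 lens genes with values was 4166 in ND, 138 in D8 and 60.8 in D8 depleted. Cryaa, a lens crystallin, had 1484 in ND, 20.4 in D8 and 2.67 in D8 depleted (-2.93 ± 0.41, the authors' deposited tables). Of 17 surface epithelium genes 12 rose and none fell (median 1.91), with summed levels of 42.5, 52.2 and 125 in the same order. Krt12, the keratin of corneal epithelium, had 1.1, 2.28 and 12.9 (2.47 ± 0.60, the authors' deposited tables). Of 9 erythroid genes 5 rose (summed levels 133, 42.1 and 73.0), with Hba-a1 at 22.2, 1.91 and 8.94 (2.23 ± 0.62, the authors' deposited tables). Of 19 pigment epithelium genes 7 rose (summed levels 158, 143 and 227), among them Ttr, the thyroxine carrier, from 19.2 to 63.5 (1.72 ± 0.47, the authors' deposited table). The part of such tissue in the other rises and falls was not tested.

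Many strong risers stood outside the lists. Arrdc2, an arrestin-domain protein (GRCm39 chr8:71287773-71292364), had levels of 5.86 in ND, 8.94 in D8 and 27.7 in D8 depleted (1.60 ± 0.16, adjusted p = 2.23e-19, the authors' deposited tables). The fatty acid binding protein genes Fabp4 (2.26 ± 0.32) and Pmp2 (2.67 ± 0.38) rose in the authors' deposited table, and so did Etnppl (1.00 ± 0.15), a phospholyase of astroglia, Eno3 (1.07 ± 0.17), an enolase of muscle, and Mfsd2b (1.39 ± 0.21). Ctla2a (2.37), Prss27 (2.45), Lypd2 (2.57), Adh1 (2.49) and Krt16 (5.59) were further large risers in the authors' deposited table, and Krt16 is a keratin of stressed epithelium.

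Some of the steepest risers lie directly downstream of a gene of much higher level. Kif4, a mitotic kinesin gene (GRCm39 chrX:99669343-99770820), had levels of 0.706 in ND, 1.55 in D8 and 12.6 in D8 depleted (2.99 ± 0.36, the authors' deposited tables). It starts 7.24 kb downstream of the end of Arr3 on the same strand, and Arr3 fell. Among 13221 tested genes with a level of at least 0.5, 3.5% had a same-strand gene ending within 20 kb upstream whose level was at least 10 times as high. The share was 6.05% of genes called higher (51 of 843), 16.5% of those called at least 2-fold higher (38 of 231), 1.2% of those called lower (9 of 751) and 5.62% of those called at least 2-fold lower (5 of 89). A gene of low level meets this ratio more easily, and the shares were not matched for level. Whether they exceed what level alone would give was not tested. Reads that run past the end of an upstream gene and reads of the gene itself cannot be told apart in these tables. Mitotic genes other than Kif4 did not rise as a group: of 32 cell cycle genes 1 rose and 1 fell. That count stands beside 5.85% called higher and 4.90% called lower over all tested genes.

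After 2 weeks of recovery the microglial genes lay much nearer to their undepleted level. D10 repopulated over D10 shares no sample with the depletion contrast, yet both cross the same divide in sample numbering, and 75 of its 16826 tested genes were called (0.446%). Cx3cr1 stood at -1.96 ± 0.32, C1qa at -1.34 ± 0.23, C1qb at -1.12 ± 0.23, C1qc at -1.12 ± 0.24 and Ctss at -1.48 ± 0.21, all called lower in the authors' deposited table for 10 weeks. Csf1r (-0.86 ± 0.27, adjusted p = 0.124) and Tmem119 (-1.02 ± 0.41, adjusted p = 0.438) were not called there, and P2ry12 had 0.20 ± 0.46 (the authors' deposited table). The difference between depletion and repopulation was tested directly, with the variances of both log2 fold changes added and Benjamini-Hochberg adjustment over 16958 genes; 109 genes were called (0.643%), 61 of them higher and 48 lower after depletion. At an unadjusted p under 0.05 there were 1937. With t quantiles in place of normal ones for the standard errors, 446 genes were called higher and 506 lower.

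On the falling side most of the genes named here were microglial. The difference in log2 fold change, computed from the authors' deposited tables, was -5.84 ± 0.62 for C1qb, -5.58 ± 0.61 for C1qa, -2.63 ± 0.34 for Ctss, -5.02 ± 0.90 for Cx3cr1 (adjusted p = 4.83e-05 by that normal test), -2.29 ± 0.46 for Csf1r and -6.93 ± 1.40 for Fcrls. Ptprn2 (-1.11 ± 0.22) and the transporter gene Slc17a6 (-0.96 ± 0.20) were called as well from the authors' deposited tables, neither of them a microglial gene. On the rising side the differences, from the authors' deposited tables, were 4.26 ± 0.62 for Psca, 3.82 ± 0.70 for Prss22, 1.98 ± 0.34 for Gpnmb, 1.22 ± 0.22 for Arrdc2 and 1.38 ± 0.28 for Ccn2. Psca, Prss22 and Gpnmb were called higher after depletion and lower after repopulation, with repopulation values of -2.15, -2.18 and -1.30 in the authors' deposited table. Against ND repopulated over ND, which also shares no sample, 187 of 16982 genes differed (1.10%), 111 higher and 76 lower after depletion, and 2000 had an unadjusted p under 0.05. With t quantiles these were 582 higher and 467 lower. C1qb (-7.15 ± 0.61), Ctss (-4.04 ± 0.32) and Cx3cr1 (-7.14 ± 0.90) led the falls there, computed from the authors' deposited tables.

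Outside the microglial genes the depletion pattern was faint at 10 weeks. The 993 genes that rose after depletion and had a value at 10 weeks had a median log2 of 0.67 after depletion and 0.15 after repopulation. There, 76.5% of them lay above 0, against 49.7% of all tested genes. The 831 fallers had medians of -0.53 and -0.07, and 67.0% lay below 0, against 50.3% of all. Genes called higher in both contrasts numbered 17, which is 1.71% of the depletion risers and 56.7% of the 10-week risers. They included the haemoglobin gene Hba-a1 (3.81 at 10 weeks), Ttr (1.68), Cxcl9 (2.98) and Etnppl (0.93) in the authors' deposited table. Genes called lower in both numbered 14, which is 1.68% of the depletion fallers and 31.1% of the 10-week fallers. Among these were Ccl12 (-1.86 at 10 weeks), the endoplasmic reticulum gene Pdia6 (-0.56) and Il6st (-0.42), per the authors' deposited table. Since D8 and D10 share a run of sample numbers, a response that outlasts depletion and a difference between the runs cannot be told apart at 10 weeks. ND repopulated over ND does not cross that divide. There the depletion risers had a median of 0.03, and 59.2% lay above 0, against 48.7% of all. The fallers had a median of -0.05 there, and 72.1% lay below 0, against 51.3% of all. What set these shares was not tested.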

How the data were processed

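Stranded poly(A) RNA libraries of retina were read as paired ends by NovaSeq, per the labels' protocols. Base calls were converted with bcl2fastq and the genome was GRCm39, per the submitters' processing notes; the aligner, counter and test were not given in the sources used here. Each of the 8 deposited tables sets 2 groups beside each other over 25655 genes. Per the file headers they hold a signal level (the larger group mean, unit not stated), the p-value and its adjusted forms, and the log2 fold change. The deposited adjusted p equals Benjamini-Hochberg adjustment over the tested genes within 7.2e-05. Depth and spread per sample are unknown, so no new model was fitted and no sample outlier was looked for.

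Computed here were the implied standard error (the log2 fold change over the normal quantile of its p), the lower group means, list counts and medians, normal tests of differences between contrasts without shared samples, and trends on transcript length and GC content (GRCm38 annotation, matched by Ensembl number for 99.8% of tested genes). The 10-week table was deposited as D10 over D10 repopulated and its sign was turned. A fold change against a level near 0 is set by the authors' fit and gives no bound. Promoter windows were matched by symbol. The difference test was tested on simulated data with planted changes. Python 3.11.15, numpy 2.4.6, pandas 2.3.3, scipy 1.17.1 and matplotlib 3.10.9 were used.

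Members, lists and tests were chosen with earlier results of these data known. The rule for named genes takes the 15 largest called rises and falls in the upper 60 percent of level, the 15 called genes with the smallest p per direction in no list, and every member of the homeostatic, pan-myeloid, border macrophage, Csf1r and classical complement lists. From other lists it takes up to 6 called members by p and the 3 of highest level, and from each difference test 10 genes per direction, plus a fixed set of 13 genes, of which not all are named; some genes that the rule takes are not reported here. Alternatives were a minimum size of 1 log2 unit, thresholds of 0.01 and 0.10 on the adjusted p, the upper 60 percent of level, predicted names left out, t in place of normal quantiles and, added later, removal of the length and GC trend.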

Additional observations from a re-analysis of the deposited data

How the results depend on the processing

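Called genes after depletion numbered 994 higher and 832 lower at an adjusted p under 0.05. At 0.01 they numbered 428 and 311, with an absolute log2 of at least 1 they numbered 381 and 170, and at 0.10 the lower genes numbered 1271. The higher genes at 0.10, and both counts in the upper 60 percent of level, without predicted names, with adjustment over every gene with a p and with the length and GC trend removed (added after the data were seen), stayed within 1.5 times. The difference from repopulation at 10 weeks (61 higher, 48 lower) moved with every alternative run: 446 and 506 with t quantiles, 27 and 18 at 0.01, 132 and 133 at 0.10, and 25 and 26 in the upper 60 percent of level. Against repopulation without diabetes (111 and 76) the counts were 582 and 467, 41 and 37, 196 and 125, and 30 and 20 in that order. Of 118 list counts, 51 moved at 0.01, 20 at 0.10, 51 with the minimum log2, 33 in the upper 60 percent of level, which left 1 homeostatic gene called lower and 1 higher and 2 pan-myeloid genes called lower, since genes under that level are not tested there, and 27 with the trend removed. No paired analysis was possible because the labels give no replicate numbers that groups share and the tables hold no value per sample; leaving out samples was likewise not run.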

Other observations

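In further gene lists few members were called after depletion, and no list is read as changed. Of 31 nuclear genes of oxidative phosphorylation Cox6a1 (0.40 ± 0.12) and Ndufa2 (0.38 ± 0.13), subunits of the respiratory chain, rose and none fell in the authors' deposited table; with the length and GC trend removed neither was called. None of 13 genes encoded by the mitochondrial genome was called. Of 39 extracellular matrix genes elastin Eln (0.39 ± 0.13) and the collagen chain Col6a1 (0.54 ± 0.15) rose and the collagen chain Col11a1 (-0.51 ± 0.18) fell in the authors' deposited table; Eln and Col11a1 were not called with the trend removed. Of 20 fatty acid synthesis genes Fads2 (-0.49 ± 0.14), Elovl6 (-0.45 ± 0.14) and Scd2 (-0.41 ± 0.14), a pair of desaturases and an elongase, fell, and Acacb (0.98 ± 0.29), whose product restrains fatty acid entry into mitochondria, rose in the authors' deposited table. Elovl6 and Scd2 were not called with the trend removed. Over all tested genes 5.85% were called higher and 4.90% lower.

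Of 19 neurotrophic and survival genes Igf2 (0.62 ± 0.17) and Egf (0.84 ± 0.29), both growth factors, rose, and Lif and the neurotrophin receptor Ngfr (-0.43 ± 0.14) fell in the authors' deposited table. Of 21 genes of the p53 response Sesn1 (0.56 ± 0.14), a stress-induced regulator of growth signalling, rose beside Bbc3, and Ccng1 (-0.49 ± 0.14) fell beside Fas, so that the list had as many falls as rises. Of 25 lysosome and phagocytosis genes the receptor kinase Tyro3 (0.66 ± 0.14) rose in the authors' deposited table, and Msr1 was among 2 that fell. Of 10 astrocyte genes Aldh1l1 (0.59 ± 0.19) and Igfbp3 (0.99 ± 0.33) rose and none fell in the authors' deposited table. Igfbp3 was not called with the trend removed.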
